A study of Mus musculus with 8 samples.

Results

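The interferon-induced transmembrane (IFITM) proteins are small membrane proteins of the CD225 or dispanin family, and their genes were followed here in polarized gut epithelial cells exposed to type III or type I interferon. Members were taken by name: every probe of the array whose gene name was Ifitm1, Ifitm2, Ifitm3, Ifitm5, Ifitm6 or Ifitm7. This gave 7 probes for 6 genes, of 39429 probes with 31693 gene names on the array. Of these, 5 probes for 4 genes exceeded the lower signal threshold of 15 units on at least 2 arrays and were tested among 25615 probes. Ifitm5 and Ifitm6 did not reach it and are described without a test. The rule used names and no measured value.

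All 8 samples came from IEC10 cells, an immortalized intestinal epithelial cell line generated from a mouse that carries firefly luciferase under the Mx2 promoter, so that the untreated cells carry the transgene too. Its culture on porous transwell inserts until polarization serves as a model of the gut lining without the other cells of the mucosa. Control cells were left untreated (2 arrays, replicates 2 and 3), and the other cells were stimulated for 9 h with IFN-λ2 at 20 ng/mL (3 arrays) or with IFN-β at 500 U/mL (3 arrays). No control array of replicate number 1 was used here. The doses are in different units, so that a difference between the interferons is a difference between these 2 treatments. Nothing in the labels says whether replicates came from separate cultures, and p-values therefore measure only the spread between these samples, which may be technical. Less RNA of a gene in each cell and fewer cells with that RNA cannot be told apart in bulk RNA.

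As background, interferons bind their receptors at the cell surface and, through the kinases Jak1 and Tyk2, activate a transcription complex that contains Stat2 and Irf9. The complex binds repeats of the letters GAAA in the DNA of interferon-stimulated genes. Among the products of these genes, the IFITM proteins sit in cellular membranes and hinder the fusion of enveloped viruses with them, Ifitm3 mainly in endosomes and Ifitm1 more at the cell surface. Ifitm1 and Ifitm3 are also known from germ cells, where the latter is called fragilis. Ifitm5, also called Bril, is a gene of bone-forming cells, and Ifitm6 is known from myeloid cells.

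The arrays were comparable in signal. Factors that brought the 75th percentile of an array to 1500 units lay between 0.628 and 0.712, no probe was saturated, and between 20991 and 24252 probes per array were well above background, a mark set by the scanner software. The array with the fewest, IFN-λ2 replicate 2, also had the highest signal of negative controls, with a 95th percentile of 19.3 units against 3.97 to 11.3 units on the others. Of the 8 epithelial markers, all were well above background on all 8 arrays, although Vil1, which encodes villin of the brush border, had group means of only 43.8 to 58.5 units. Their summed signal was 279736 to 292679 units in control cells, 319399 to 339873 units with IFN-λ2 and 279488 to 322307 units with IFN-β. With IFN-λ2, Cdh1 (0.45, adjusted p = 0.0259 in limma) and Krt19 (0.42, adjusted p = 0.0199) were called higher than control on the log2 scale and Cldn4 (-0.52, adjusted p = 0.00825) lower, and between the interferons Krt19 was higher by 0.60 and Cldn4 differed by -0.35. With IFN-β none was called against control, with 1 at an unadjusted p under 0.05. The methods' t-test with Benjamini-Hochberg adjustment also required a 2-fold difference. No marker differed that much, so its count of 0 in all comparisons was fixed in advance. Both higher calls against control were lost under normexp background correction and without IFN-λ2 replicate 3. With the replicate number as a block, or without IFN-λ2 replicate 1 or 2, 1 of them was lost. The lower call between the interferons was lost under normexp, with the block and without any 1 of the 6 stimulated arrays. The part of these differences in the members' values was not tested. Arrays of the same replicate number shared a slide, on which every group kept its own fixed place, so that position and treatment cannot be told apart.

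Ifitm3 was the member that rose. It increased 6.84-fold after stimulation by IFN-λ2 and 7.40-fold after IFN-β, and the interferons did not differ past the threshold. Ifitm1, Ifitm2 and Ifitm7 passed the test in no comparison. Of the 5 member probes tested, 1 was therefore called higher with IFN-λ2, where 10.8% of all probes tested were called higher and 8.25% lower. With IFN-β, 1 of 5 was called higher as well, against a background of 1.51% higher and 0.211% lower. The methods' t-test with Benjamini-Hochberg adjustment called 1 of 5 with IFN-λ2 and 0 of 5 with IFN-β, where Ifitm3 had an adjusted p of 0.0561. Between the interferons, limma called 0 of 5, against 6.15% of all probes that were higher with IFN-λ2 and 5.33% that were lower. The balance of higher and lower calls over all probes moved with the scaling, from 2779 and 2114 with IFN-λ2 to 1635 and 640 under normexp and to 2427 and 2565 under quantile normalization. With IFN-β, 386 and 54 became 259 and 6 under normexp, and between the interferons 1576 and 1364 became 1148 and 372. In that comparison 0 of 5 also had an unadjusted p under 0.05, and the methods' t-test with Benjamini-Hochberg adjustment gave 0. The median difference of the 5 probes was 0.43 with IFN-λ2, 0.30 with IFN-β and -0.09 between the interferons on the log2 scale, where the medians of all probes tested were 0.02, 0.01 and 0.00.

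**Figure D1:**
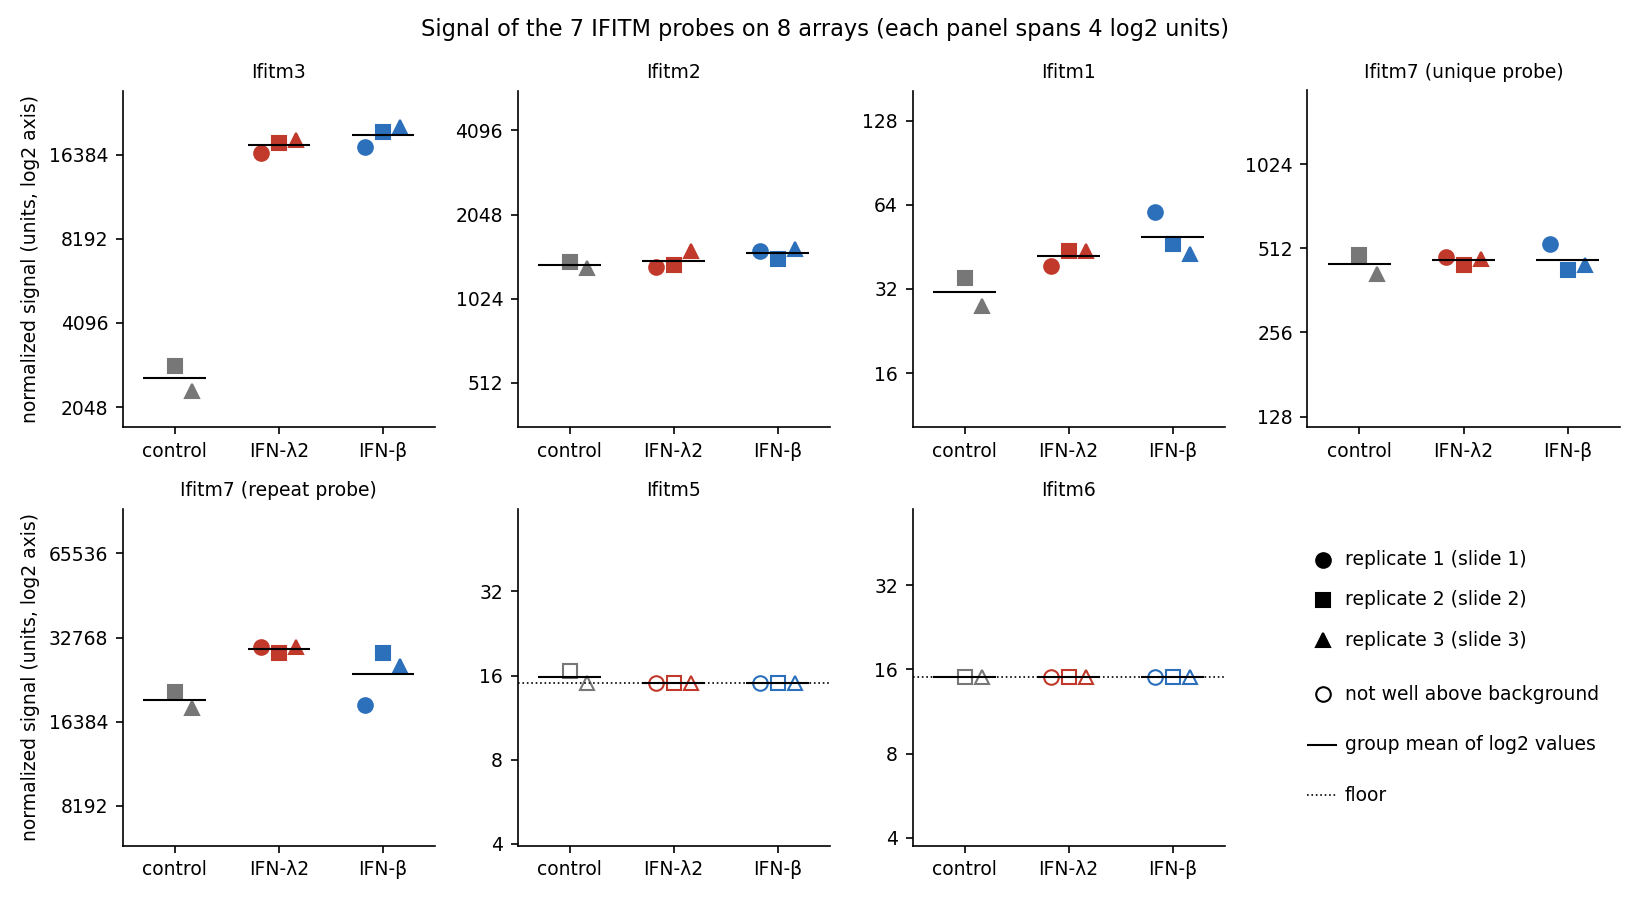
Normalized signal (units, log2 axis) of each of the 7 IFITM probes in control, IFN-λ2 and IFN-β cells, 1 point per array, with bars at the mean of the log2 values. The 6 Ifitm3 points of stimulated cells lie at 16642 units or more and both control points at 2874 units or less, while the points of Ifitm2 and of the unique Ifitm7 probe stay close together and those of Ifitm5 and Ifitm6 are open, meaning not well above background.

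The Ifitm3 probe is a 60-base oligonucleotide on the minus strand of chr7:148195591-148195650 in mm9, the build of the array files. It was present in 10 copies on every array, in contrast to the other members' probes with 1 copy each. Its first 30 bases are printed to identify the transcript that was measured.

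Ifitm3 probe, bases 1 to 30: cttaacgctcaaaaccttcacacttaatag

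No run of 20 bases of this probe occurred in any other probe of the array. Ifitm3 measured 2874 and 2337 units in control replicates 2 and 3. After IFN-λ2 it measured 16642, 18079 and 18495 units in replicates 1, 2 and 3, and after IFN-β 17372, 19663 and 20614 units. Every stimulated array thus lay far above both control arrays, whereas the values of the interferons overlapped. The group means were 2606 ± 380 units (SD, n = 2) in control cells, 17739 ± 972 (SD, n = 3) with IFN-λ2 and 19216 ± 1667 (SD, n = 3) with IFN-β.

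On the log2 scale Ifitm3 rose by 2.77 with IFN-λ2 (SE 0.12, 95% confidence interval 2.49 to 3.06), with an adjusted p of 1.7e-05 in limma with Benjamini-Hochberg adjustment over all probes tested. With IFN-β it rose by 2.89 (95% confidence interval 2.60 to 3.17, adjusted p = 2.1e-05 in limma). Ranked from the highest difference down, the probe took place 126 of 25615 with IFN-λ2 and place 66 with IFN-β. The difference between IFN-λ2 and IFN-β was -0.11 with a 95% confidence interval of -0.37 to 0.14 (adjusted p = 0.566 in limma). In folds, this interval reached from 0.776 to 1.10 for IFN-λ2 over IFN-β, so that a larger difference in either direction lay outside it. Both contrasts with control share the same 2 control arrays.

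The differences were also read slide by slide. The log2 difference of IFN-λ2 from control was 2.65 on the slide of replicate 2 and 2.98 on that of replicate 3. That of IFN-β from control was 2.77 and 3.14 on these slides. Between the interferons the differences were -0.06, -0.12 and -0.16 on the slides of replicates 1, 2 and 3, and IFN-β was thus slightly higher than IFN-λ2 on each of the 3 slides.

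The 10 copies of the probe show how precisely a single array measures this transcript. In the control arrays the copies ranged from 2730 to 3085 units in replicate 2 and from 2189 to 2438 units in replicate 3. In the stimulated arrays the lowest copy was at 16003 units (IFN-λ2 replicate 1) and the highest at 21531 units (IFN-β replicate 3). The coefficient of variation between copies was 1.88% to 3.53% per array, below the 5.48% to 14.6% found between the arrays of a group. Between 9 and 10 copies per array entered the mean after exclusion of outliers. The copies are repeated spots of the same labelled RNA and were not counted as replicates.

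**Figure D2:**
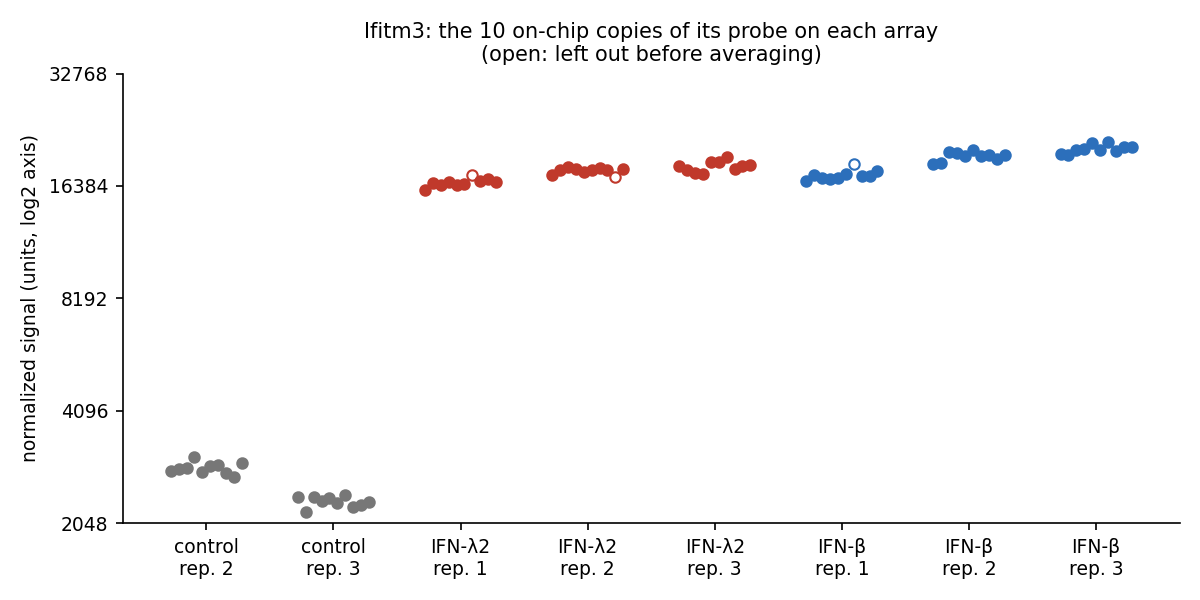
Normalized signal (units, log2 axis) of the 10 on-chip copies of the Ifitm3 probe on each of the 8 arrays, with open points for copies left out before averaging. The copies of an array cluster tightly, and the gap between the highest control copy, at 3085 units, and the lowest copy of a stimulated array, at 16003 units, is wider than any spread within an array.

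The genes whose probes followed Ifitm3 most closely over the 8 arrays, among 16085 genes well above background on all of them, were Parp12 (Pearson's r = 0.999), Pml (0.998), Bst2 (0.998), Tor3a (0.997) and Zbp1 (0.997). These are descriptions over 8 arrays that share their controls, 2 control arrays and 6 stimulated ones, and carry no test. Their sizes differed. Zbp1, a sensor of Z-form nucleic acids, was 38.5-fold and 35.3-fold higher with IFN-λ2 and IFN-β, whereas Pml, which builds nuclear bodies, was 1.80-fold and 1.82-fold higher. Bst2, or tetherin, which holds budding virus at the cell membrane, was 3.74-fold and 4.27-fold higher. Parp12 was 5.52-fold and 5.92-fold higher and Tor3a 6.07-fold and 6.10-fold, both close to the values of Ifitm3.

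Ifitm2 lies next to Ifitm1 in the same cluster of genes and is also counted among the antiviral IFITM proteins. Its probe, on the minus strand of chr7:148140881-148140940 in mm9, was well above background on all arrays. The start of the probe is given because its last bases also occur elsewhere: capitals mark the part shared with a probe for Gm8144.

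Ifitm2 probe, bases 1 to 30: acctctgtggtagtctttcagtctTTTGCA

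Control replicates 2 and 3 had 1391 and 1313 units. IFN-λ2 replicates 1, 2 and 3 had 1330, 1356 and 1517 units, and IFN-β replicates 1516, 1417 and 1540 units. The values of IFN-λ2 overlapped with control, while all 3 of IFN-β lay just above both control arrays. The log2 difference was 0.05 for IFN-λ2 against control (95% confidence interval -0.15 to 0.25, adjusted p = 0.723 in limma). For IFN-β against control it was 0.14 (-0.06 to 0.34, adjusted p = 0.590), and for IFN-λ2 against IFN-β -0.09 (-0.27 to 0.09, adjusted p = 0.516). The upper ends of the intervals against control correspond to 1.19-fold and 1.27-fold. The probe shares a run of 36 bases with that for Gm8144, which RefSeq lists as a pseudogene, so that transcripts of either could bind it. The Gm8144 probe itself ranged from 782 to 935 units and was called in no comparison, with log2 differences of 0.08, 0.14 and -0.06.

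Ifitm1 gave a faint signal. Its probe, on the plus strand of chr7:148155659-148155718 in mm9, was well above background on all 8 arrays. The first 30 bases are in capitals throughout, since bases 1 to 54 of the probe are identical to a probe for Gm7676, listed as a pseudogene by RefSeq.

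Ifitm1 probe, bases 1 to 30: TGTGACACTCACAAATCTGTCCATGGTGGA

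It measured 35.1 and 27.9 units in control replicates 2 and 3. With IFN-λ2 the values were 38.6, 43.9 and 43.6 units, and with IFN-β 60.4, 46.4 and 42.7 units. Both control arrays thus lay below all 6 stimulated arrays, and the interferons overlapped. The log2 difference from control was 0.43 with IFN-λ2 (95% confidence interval 0.02 to 0.83, unadjusted p = 0.0406 and adjusted p = 0.130 in limma). With IFN-β it was 0.66 (0.26 to 1.06, unadjusted p = 0.00611 and adjusted p = 0.168 in limma). Neither passed after adjustment, and the difference between the interferons was -0.23 (-0.59 to 0.13, adjusted p = 0.394). Over the alternatives, the log2 difference from control lay between 0.26 and 0.59 with IFN-λ2 and between 0.29 and 0.82 with IFN-β. Alternatives that keep the probe moved the adjusted p between 0.0610 and 0.480 with IFN-λ2 and between 0.122 and 0.892 with IFN-β. The Gm7676 probe was at 27.1 to 48.5 units, close to those of the Ifitm1 probe, with log2 differences of 0.22 and 0.54 from control that were not called either. Which of the transcripts bound to either probe cannot be told apart.

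Values that do not overlap between groups were seen for 3 of the 5 member probes with IFN-λ2 against control, namely Ifitm1, Ifitm3 and the repeat probe of Ifitm7. Among all probes tested the share was 50.2%. With IFN-β against control it was again 3 of 5, here Ifitm1, Ifitm2 and Ifitm3, against 26.2%. Between the interferons the groups overlapped for all 5 probes, against 32.9% of all probes without overlap. Lack of overlap was therefore common among all probes in each comparison, also in that without control arrays.

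Ifitm7, on another chromosome than the rest of the family, was represented by a pair of probes on the minus strand of chromosome 16 in mm9. They behaved differently. The probe at chr16:13981795-13981854 is called the unique probe below. The probe at chr16:13982912-13982971 is called the repeat probe, since its last 30 bases alternate between G and T, as the capitals show.

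Ifitm7 unique probe, bases 1 to 30: tgggggatgggccttccccctttataagca
Ifitm7 repeat probe, bases 31 to 60: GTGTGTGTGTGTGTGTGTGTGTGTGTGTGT

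The unique probe measured 485 and 416 units in control replicates 2 and 3. With IFN-λ2 it measured 476, 447 and 468 units, and with IFN-β 530, 427 and 447 units. All 3 groups overlapped. The log2 differences were 0.05 for IFN-λ2 against control (95% confidence interval -0.23 to 0.32, adjusted p = 0.814 in limma), 0.05 for IFN-β against control (-0.22 to 0.33, adjusted p = 0.901) and -0.01 between the interferons (-0.25 to 0.24, adjusted p = 0.980). The unique probe shared a run of 20 bases with a probe for Gal3st2, which was at 35.2 to 43.4 units on all arrays.

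The repeat probe measured 20990 and 18359 units in control replicates 2 and 3, and 30226, 28925 and 30403 units with IFN-λ2. With IFN-β the values were 18881, 28942 and 25993 units. IFN-λ2 thus lay above both control arrays on all 3 arrays, while IFN-β replicate 1 fell among the control values. The log2 difference of IFN-λ2 from control was 0.60 (95% confidence interval 0.19 to 1.02, adjusted p = 0.0532 in limma), just short of the threshold. It passed without IFN-β replicate 1, with an adjusted p of 0.00846, and without IFN-β replicate 2, with 0.0402, although neither array belongs to the groups compared, since all groups share 1 estimate of the spread. It also passed under 5 other settings, with adjusted p between 0.0178 and 0.0388. IFN-β differed from control by 0.30 (adjusted p = 0.565) and IFN-λ2 from IFN-β by 0.30 (adjusted p = 0.278).

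A total of 51 other probes of the array, designed for other genes, contain at least 20 bases of alternating G and T and were well above background on all arrays. Over the 8 arrays, the repeat probe correlated with each of them at a Pearson's r between 0.941 and 0.998, but at -0.21 with the unique probe of the same gene. On the array of IFN-β replicate 1, where the repeat probe was 0.40 below its own mean on the log2 scale, the median of the 51 probes was 0.35 below theirs, whereas the unique probe was 0.20 above its mean. The median log2 difference of the 51 probes was 0.52 for IFN-λ2 against control, with 13 called higher and 0 lower by limma. For all 51 the unadjusted p was under 0.05. None of the 51 differed 2-fold, as the methods' t-test with Benjamini-Hochberg adjustment also required, so its count of 0 was fixed in advance. The median was 0.26 for IFN-β against control and 0.25 between the interferons. Limma called 0 in both comparisons, with 5 and 2 probes at an unadjusted p under 0.05, and the methods' t-test again could only give 0. The 5 genes most like the repeat probe also had probes with alternating runs of G and T, of 17 to 34 bases, among them Hecw1, Neurl1b and Il15ra. These points share the sequence of the probe, and their part in the signal of the repeat probe was not tested. The unique probe gave no call for Ifitm7 in any comparison.

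**Figure D3:**
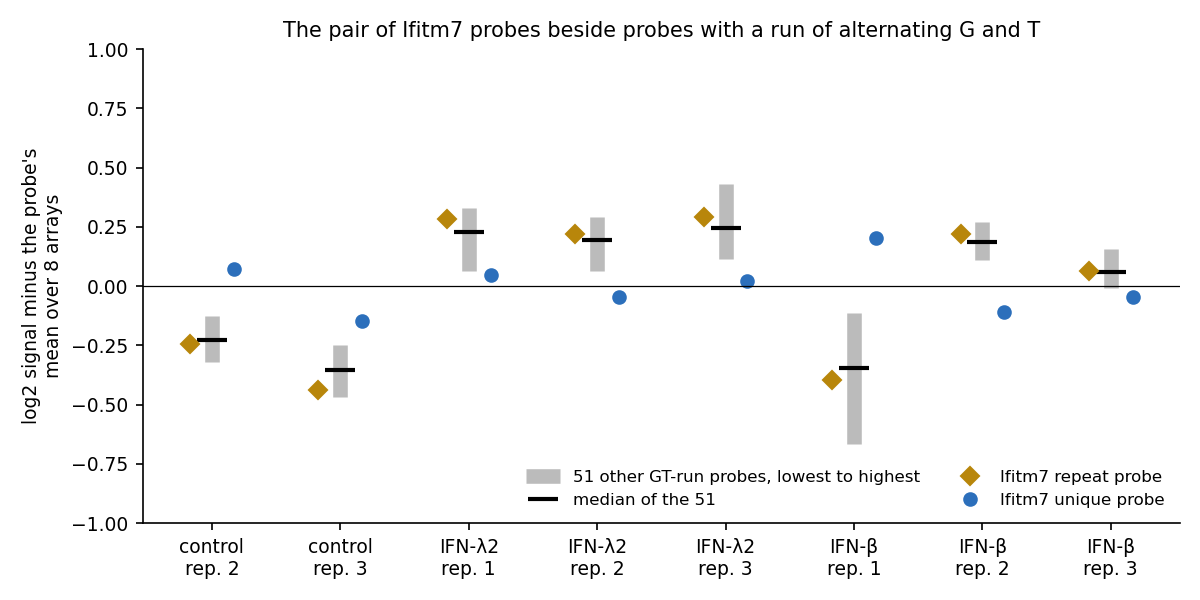
Log2 signal minus the probe's own mean over the 8 arrays, for the repeat probe and the unique probe of Ifitm7 and for 51 other probes with a run of at least 20 alternating G and T (grey bars from lowest to highest, black line at the median). The repeat probe stays within the range of the 51 probes on all 8 arrays, including IFN-β replicate 1 at -0.40, where the unique probe is at 0.20.

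Ifitm5 and Ifitm6 gave no signal above background. The Ifitm5 probe lies on the minus strand of chr7:148135949-148136008 and the Ifitm6 probe on the minus strand of chr7:148201714-148201773 in mm9. Their first bases are given for comparison with the probes that gave signal.

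Ifitm5 probe, bases 1 to 30: caccacgagatcacatgctctggtctgtct
Ifitm6 probe, bases 1 to 30: gactactaaattcttccatgcactgtcttc

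Ifitm5 reached 16.6 units in control replicate 2, and the other 7 arrays gave it the threshold value of 15 units. Before the threshold was applied its values were 7.04 to 16.6 units. Ifitm6 was at 15 units on all 8 arrays, with 3.90 to 7.55 units before the threshold. Neither probe was marked as well above background on any array, and no fold is given. Of 5 markers of osteoblasts, the bone-forming cells in which Ifitm5 is known, Sp7, Ibsp, Runx2 and Dmp1 were not well above background on any array, while Bglap was on 5 arrays with group means of 17.2 to 26.9 units. The summed signal of the 5 markers lay between 75 and 90.1 units on all arrays, where 75 is the sum of 5 probes at the threshold. Among 8 leukocyte markers, Ptprc, which encodes CD45, was well above background on 2 arrays, Lyz2 on 1 array, and Itgam, Csf1r and Cd3e on all 8. Their summed signal ranged from 9867 to 13133 units in control cells, 7915 to 10060 units with IFN-λ2 and 8524 to 14872 units with IFN-β, and limma called none of the 6 tested in any comparison (2, 0 and 1 at an unadjusted p under 0.05, none by the methods' t-test). Itgam, which encodes an integrin of myeloid cells, had 6519 ± 1599 units (SD, n = 2) in control cells, 2655 ± 748 (SD, n = 3) with IFN-λ2 and 6120 ± 3628 (SD, n = 3) with IFN-β, and its log2 difference with IFN-λ2 was -1.31 (adjusted p = 0.141 in limma). Csf1r, a receptor gene of macrophages, had 4733 units on average in control cells and 5913 with IFN-λ2, and its log2 difference was 0.33 (adjusted p = 0.110). Without IFN-β replicate 2, 1 marker was called lower with IFN-λ2, 1 higher with IFN-β and 2 lower between the interferons, and with the groups compared alone 1 was called lower with IFN-λ2. The part of other cell types in the members' values was not tested.

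**Figure D4:**
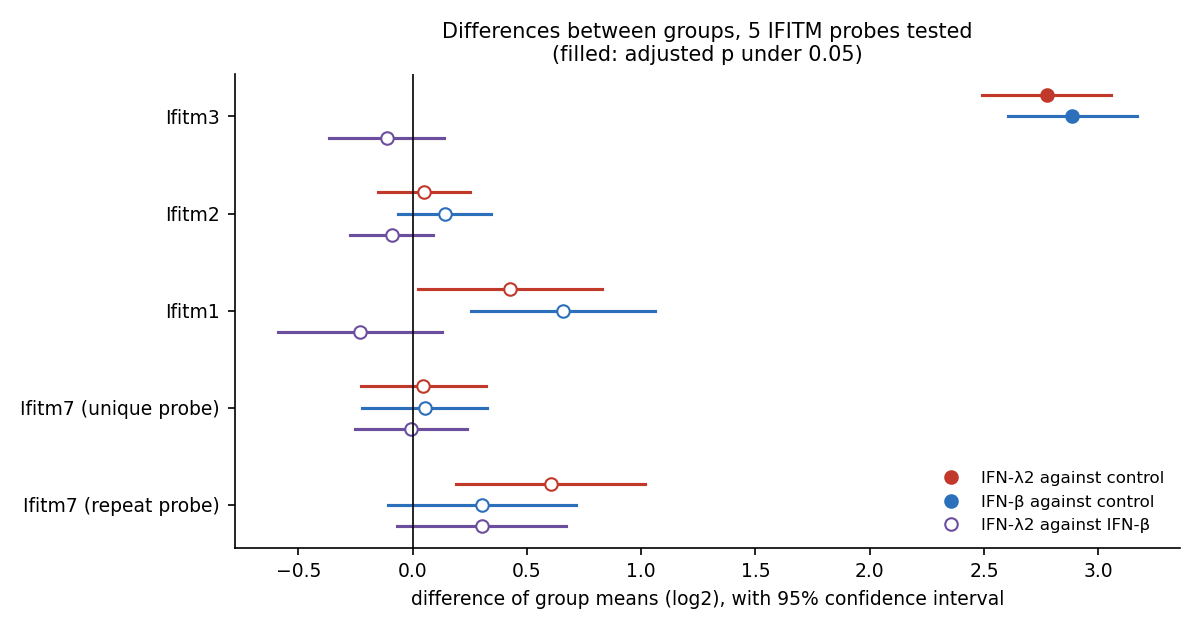
Differences between group means on the log2 scale with 95% confidence intervals for the 5 IFITM probes tested, in 3 comparisons, filled where the adjusted p was under 0.05. Only the points of Ifitm3 against control, at 2.77 and 2.89, are filled, and its difference between the interferons lies at -0.11 with an interval that includes 0.

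The 7 probes had no stretch of more than 8 bases in common with each other in any pair. On chromosome 7 the 5 probes followed each other in the order Ifitm5, Ifitm2, Ifitm1, Ifitm3 and Ifitm6 with gaps of 4872, 14718, 39872 and 6063 bp in mm9. Ifitm3, the member that rose, is thus flanked by Ifitm1 and Ifitm6, for which no call was made.

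The sequence around the start sites was compared for the letters bound by the interferon-activated factors. RefSeq windows of GRCm38.p6 from 250 bases before to 50 bases after 1 start site per gene were found for all 6 members, among 32851 windows in total. The pattern GAAANNGAAA, with N for any base and read on both strands, was present in 3.44% of all windows and in 2 of 6 IFITM windows, those of Ifitm2 and Ifitm3. In Ifitm3 it occurred at positions 3 to 12 and 20 to 29 after the start, and in Ifitm2 at -46 to -37 before it. The 30 bases that begin 1 base ahead of these matches are printed with the matches in capitals, the second of Ifitm3 with the 2 further bases of a longer pattern given below. The bases are those of Ifitm3 from the minus strand of chr7:141010714-141010743 and those of Ifitm2 from the minus strand of chr7:140955979-140956008 in GRCm38.p6.

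Ifitm3, positions 2 to 31: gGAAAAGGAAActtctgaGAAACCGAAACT
Ifitm2, positions -47 to -18: gGAAAAGGAAAttgctagagaaagggcggg

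The 1st match is the same in both genes, and 17 of the 30 positions are identical when the stretches are set side by side without gaps. The 2nd match of Ifitm3, which Ifitm2 lacks at this place, continues to GAAACNGAAACT. This longer pattern, chosen after seeing the sequence, was found in 24 windows, or 0.0731% of all, and among the members in Ifitm3 alone. The pattern TTCNNNGAA, a palindrome known from interferon-responsive genes, was present in 8.30% of all windows and again in 2 of 6 members. It overlapped the 2nd GAAANNGAAA match of Ifitm3 at positions 14 to 22 and lay at -10 to -2 in Ifitm6. A match describes the letters of these windows and nothing more, and other start sites were not searched.

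The genes whose windows hold GAAANNGAAA were also counted. Of 453 such genes tested, 117 (25.8%) were called higher with IFN-λ2 and 60 (13.2%) with IFN-β, compared with 11.1% and 1.57% of all 20511 genes, each taken by its brightest probe. The difference between these shares was not tested. For the longer pattern 14 genes were tested, and 8 and 7 of them were called higher. Besides Ifitm3 they included Ifit1, Gbp3, Gbp7, Irgm1 and Trim34a, with log2 differences between 2.52 and 4.87 for IFN-λ2. Ifit1bl2 (1.15) and Ddx60 (0.83) were called higher with IFN-λ2 as well, the latter not with IFN-β, where it was at 0.07. The uncalled genes Atp6v1d, Eif2s1, Gna13, Ncoa7 and Orc2 had log2 differences between -0.01 and 0.30 with IFN-λ2. Tgfbi, a matrix protein gene with the same pattern, differed by -1.50 with IFN-λ2 and was called lower. Ifitm2, which holds the shorter pattern, belongs to the majority of the 453 genes that were not called.

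The other genes of the pathway were taken from lists, and the gene's brightest probe was read. Among the genes for interferon receptors, kinases and transcription factors described here, Stat2 and Irf9 rose with both interferons. The log2 difference with IFN-λ2 and IFN-β was 2.17 and 1.73 for Stat2 and 2.01 and 1.93 for Irf9. The receptor genes Ifnar1, Ifnar2, Ifnlr1 and Il10rb and the kinase genes Jak1 and Tyk2 were well above background on all arrays and were not called, with log2 differences between -0.28 and 0.15 from control. Between the interferons, Stat2 was higher with IFN-λ2 by 0.44 (adjusted p = 0.047 in limma). This call was lost with the replicate number as a block and without any 1 of IFN-λ2 replicates 1, 2 and 3 and IFN-β replicates 1 and 3. The difference was too small for the methods' t-test, which also required a 2-fold difference and could not call it.

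Ifitm3 was compared with a mixed list of 12 other antiviral genes. The products of many, though not of all, act at membranes or on the entry of viruses. Of the 12 genes, 7 rose with IFN-λ2 and 6 with IFN-β, where 11.1% and 1.57% of all genes tested were called higher. The methods' t-test with Benjamini-Hochberg adjustment and its 2-fold minimum called 6 and 3 of them. Mx1 and Mx2, dynamin-like GTPases, differed from control by 4.90 and 4.46 with IFN-λ2 and by 3.92 and 4.21 with IFN-β on the log2 scale. Rsad2, or viperin, differed by 4.45 and 3.45, and Lgals9, a galectin, by 3.01 and 2.83. Ly6e, a membrane-anchored inhibitor of coronavirus entry, rose by 0.88 and 0.57. Cd74, the invariant chain of MHC class II, rose by 2.26 with IFN-λ2 and was not called with IFN-β, at 0.28. Ch25h, Ncoa7, Shfl, Serinc3 and Serinc5 were not called with either interferon. Between the interferons, Rsad2 (1.99-fold), Mx1 (1.98-fold) and Cd74 (3.93-fold) were higher with IFN-λ2 and passed the test, against 6.36% of all genes tested. This count of 3 became 1 where a 2-fold difference was also required, as it was in the methods' t-test, since Rsad2 and Mx1 fell just short. Bst2, Mx2 and Lgals9 did not pass it, with log2 differences of -0.19, 0.25 and 0.18, and neither did Ifitm3 at -0.11. The log2 median of the 12 genes was 1.39 with IFN-λ2 and 0.43 with IFN-β.

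**Figure D5:**
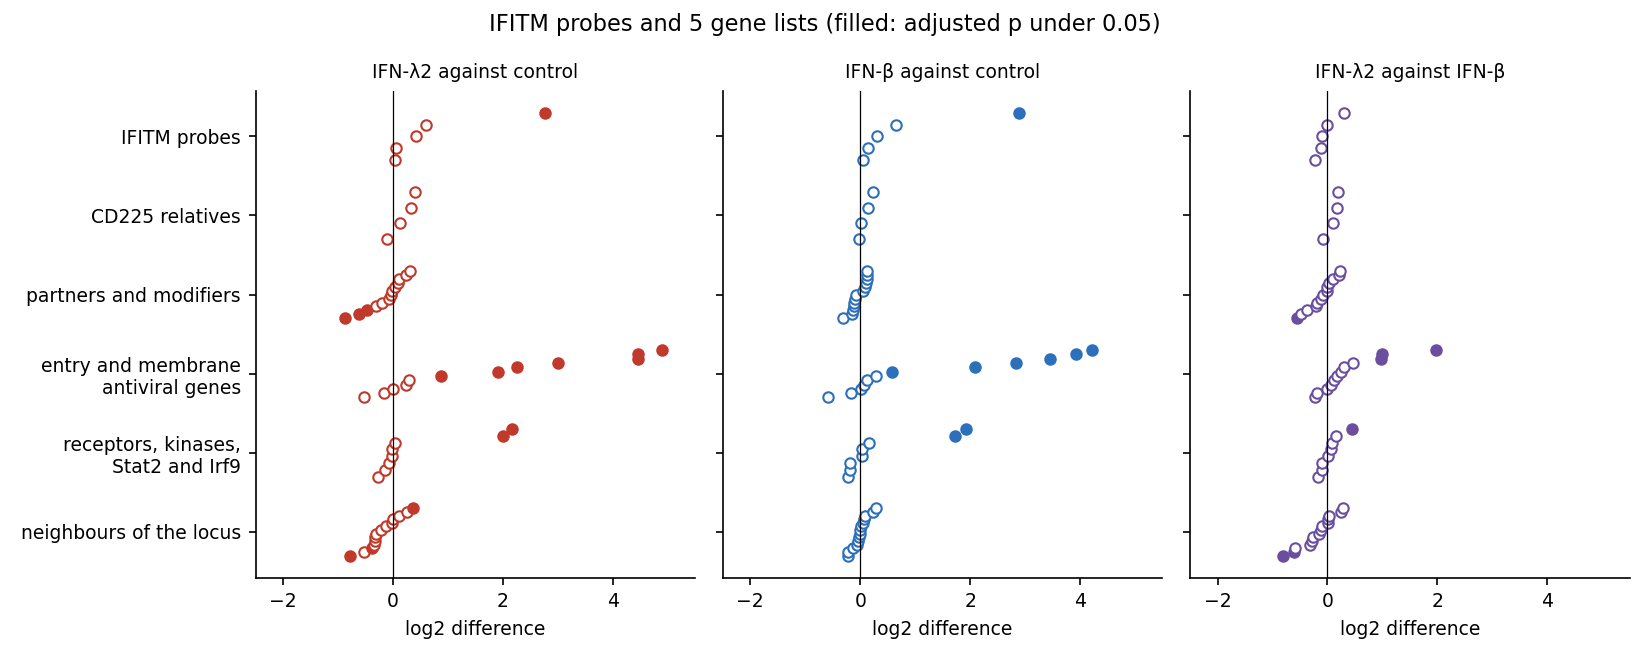
Log2 differences of the IFITM probes and of tested genes of 5 lists in 3 comparisons, 1 point per probe or gene, filled where the adjusted p was under 0.05. Among the IFITM probes the filled points are those of Ifitm3 at 2.77 and 2.89, while filled points to the right are found among the listed antiviral genes and for Stat2 and Irf9.

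Genes for proteins that bind or modify IFITM proteins were mostly not called. Of 15, 13 were tested and all 13 were well above background on all arrays. With IFN-λ2, 3 fell and none rose in limma. None of these differed 2-fold, so the 2-fold requirement and the methods' t-test, which includes it, could only give 0. Setd7, a methyltransferase reported to modify Ifitm3, fell by 0.87 on the log2 scale (adjusted p = 0.00567 in limma), from 3179 ± 435 units (SD, n = 2) to 1733 ± 116 (SD, n = 3). The kinase Fyn, which phosphorylates Ifitm3, fell by 0.62 (adjusted p = 0.0285), and Zdhhc20, which attaches palmitate to it, fell by 0.48 (adjusted p = 0.0269). The ubiquitin ligase Nedd4 (-0.20), the protease Zmpste24 (0.04), the thioesterase Abhd16a (-0.02) and the sterol transfer partners Vapa (0.23) and Osbp (0.09) were not called. With IFN-β, limma called 0 of the 13, with 0 at an unadjusted p under 0.05 and 0 by the methods' t-test. Between the interferons Setd7 differed by -0.56, with the lower level after IFN-λ2 (adjusted p = 0.0271). This call was lost under normexp, with no filter on dim probes and with the replicate number as a block. It was also lost without IFN-λ2 replicate 1 or 2 or IFN-β replicate 2 or 3. With a floor of 50 units, the filter on probes well above background or the prior with trend, 3 genes were called, and with the groups compared alone 2. For IFN-λ2 against control, the count of 3 became 1 under normexp, with the groups compared alone and with the replicate number as a block. It was also 1 without IFN-λ2 replicate 1 or IFN-λ2 replicate 2. The background of lower calls in the comparison of IFN-λ2 with control was 8.25%. Fkbp11, a partner of Ifitm5, was not tested because it did not exceed the threshold on 2 arrays.

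Of 8 other genes of the CD225 family, 4 were tested and none was called by limma in any comparison (2, 0 and 0 at an unadjusted p under 0.05). None differed 2-fold, so the methods' t-test could only give 0. Tmem233 had log2 differences from control of 0.32 (IFN-λ2) and 0.13 (IFN-β), and Prrt1 of 0.40 and 0.23. Those of Prrt2 were 0.12 and 0.02, and those of Tmem91 -0.10 and -0.01. With IFN-λ2, 1 of the 4 was called higher without control replicate 3, without IFN-β replicate 1 and under 3 other settings. Ifitm10, Trarg1, Syndig1 and Syndig1l were at 15 units on all arrays.

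Of 16 genes chosen from the region around the cluster on chromosome 7, 14 were tested. The choice does not hold every gene of that region. With IFN-λ2, 1 was called higher and 2 lower, where 10.8% of all probes tested were called higher and 8.25% lower. With IFN-λ2, Ano9 was higher by 0.36 (adjusted p = 0.0402 in limma), while B4galnt4, which follows Ifitm6 in the order of protein-coding genes in GRCm38.p6, fell by 0.78 (adjusted p = 0.00583) and Sigirr by 0.38 (adjusted p = 0.0111). With IFN-β, limma called 0 of 14, with 2 at an unadjusted p under 0.05 and 0 by the methods' t-test. Between the interferons B4galnt4 (-0.80) and Pgghg (-0.61), which lies on the far side of Ifitm5, were lower with IFN-λ2, where 5.33% of all probes tested were called lower. B4galnt4 measured 131 ± 8.50 units (SD, n = 2) in control cells, 76.4 ± 6.44 (SD, n = 3) with IFN-λ2 and 134 ± 14.6 (SD, n = 3) with IFN-β. The call of Ano9 was lost with the replicate number as a block, under quantile normalization, with no filter on dim probes and with the groups compared alone. Leaving out any 1 of the IFN-λ2 replicates, IFN-β replicate 2 or IFN-β replicate 3 also removed it. All calls among these genes, against control and between the interferons, were lost under normexp. None of the called genes differed 2-fold, so the 2-fold requirement and the methods' t-test, which includes it, could only give 0. The nearest tested genes on either side of the cluster, Pgghg and B4galnt4, thus had log2 differences of -0.33 and -0.78 with IFN-λ2 and 0.28 and 0.02 with IFN-β, whereas Ifitm3 was at 2.77 and 2.89.

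For the remaining members, the genes most like them over the 8 arrays were followed less closely. Ces2e, an intestinal carboxylesterase, was nearest to Ifitm2 (r = 0.944), with log2 differences from control of -0.07 and 0.31. Fbxo39 was nearest to Ifitm1 (r = 0.911), with 0.22 and 0.35. These are again descriptions over 8 arrays, and the nearest of 16085 genes reaches a high r by choice.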

How the data were processed

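Total RNA of 8 IEC10 samples was hybridised to 1-color Agilent arrays (Cy3). The authors scanned them with Feature Extraction 10.7.3.1, which subtracted the background, and deposited the intensity of each feature and a table of normalized values. For RNA isolation the labels name Trizol and the paper a silica column kit. From the scanner output, control features and features marked as outliers were left out, as were those beyond 1.42 interquartile ranges of their copies or with a pixel coefficient of variation above 0.5. Copies of a probe were averaged geometrically, the 75th percentile given in the file was set to 1500 units, and lower values were raised to 15. Of 315432 deposited intensities, 99.8% equal these values (tolerance 1e-06). The table replaced the scanner output in 1 alternative.

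Probes above 15 units on at least 2 arrays were fitted as log2 values, all 8 arrays in 1 fit of 3 group means, with limma 3.58.1 (R 4.3.3) and Benjamini-Hochberg adjustment at 0.05. Fits were checked on simulated data. The methods' t-test with Benjamini-Hochberg adjustment also required a 2-fold difference, so that it could call no smaller one. Gene names follow RefSeq accession, symbol or synonym, and 8428 probes kept the design name. All member probes are named. Other names could come from the measured genes of lists of up to 10 genes and the 4 with the smallest p of longer lists. They could also come from the 5 genes most like a member by Pearson's r. Not all of these are named, and further names in longer lists were chosen after their values were seen. The members and lists were chosen with earlier results of these data known. Correlations of deviations from the group means between IFN-λ2 and IFN-β arrays of the same replicate number were 0.187, 0.277 and 0.317, so the numbers, which are also slides, pair these arrays. With controls they were -0.07 to 0.10. The number of arrays limits the precision. Python 3.11.15 with numpy 2.4.6 and pandas 2.3.3 served for all other steps. Some genes of the lists are not reported here.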

Additional observations from a re-analysis of the deposited data

How the results depend on the processing

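Over 22 alternatives, the log2 difference of Ifitm3 from control stayed between 2.62 and 2.92 with IFN-λ2 and between 2.74 and 3.04 with IFN-β. The call with IFN-β was lost under the methods' t-test with Benjamini-Hochberg adjustment (0 member probes called, Ifitm3 at 2.89 with an adjusted p of 0.0561). With IFN-λ2, 2 member probes instead of 1 were called under normexp, a floor of 50 units, the filter on probes well above background, the groups compared alone and the prior with trend, and 1 to 2 when single arrays were left out. The additional probe was the repeat probe of Ifitm7. With the replicate number as a block, for which the arrays of the interferons are paired, no member's call changed: Ifitm3 was at 2.83 (adjusted p = 0.000628) and 2.94 (adjusted p = 0.000785), and 253 and 12 probes were called higher and lower with IFN-β in place of 386 and 54.

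Differences near 0 changed sign. With single arrays left out, Ifitm2 with IFN-λ2 ranged from -0.0089 to 0.091, and the unique Ifitm7 probe from -0.065 to 0.157 with IFN-λ2, from -0.058 to 0.164 with IFN-β and from -0.070 to 0.086 between the interferons. With the block the unique probe was at -0.0098 with IFN-λ2 and -0.0029 with IFN-β. Under normexp it was at 0.078 between the interferons, and Ifitm1 was at 0.18 there. The cause was not tested. Over all 22 alternatives, probes called higher numbered 305 to 3281 with IFN-λ2, 76 to 457 with IFN-β and 205 to 1789 between the interferons. Those called lower numbered 62 to 2565 with IFN-λ2 and 77 to 1595 between the interferons, and with IFN-β made up 0.00781% (the methods' t-test with Benjamini-Hochberg adjustment) to 0.467% (a floor of 50 units) of the probes tested. Normexp moved the median log2 difference of all probes to 0.12 with IFN-λ2 and to 0.11 between the interferons. Ifitm1 was not tested with a floor of 50 units. Ifitm5 and Ifitm6 cannot be compared at this signal over background.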
